A study of Mus musculus with 6 samples.

Results

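Genes that build cholesterol and fatty acids, take lipid into the cell, store it and send it out again were followed in mouse peritoneal macrophages and splenic neutrophils with and without TIARP, the protein encoded by Steap4. The set has 35 genes of the 30187 on the arrays, chosen by name and each read by its brightest probe, and all 35 were found. The choice was made with earlier results of these data known. By role there are 11 enzymes of cholesterol synthesis, 3 genes of sterol-dependent control, 4 of fatty acid synthesis and desaturation, 3 nuclear receptors that sense lipids, 5 genes of cholesterol efflux, 3 of uptake, 4 of fatty acid binding and storage, and 2 genes known from lipid-laden macrophages.

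Cells make cholesterol from acetyl-CoA through mevalonate, isoprenoids, squalene and lanosterol, and SREBP transcription factors switch the genes of this route on when membrane sterol is low. When sterol is plentiful, oxysterols activate the LXR nuclear receptors, which raise the transporters and apolipoproteins that carry cholesterol out. Macrophages that clear dying cells and lipoproteins use both arms, together with scavenger receptors for uptake and lipid droplets for storage. TIARP (STEAP4) is a membrane metalloreductase that was named for its induction by TNF in fat cells.

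The study used C57BL/6 mice that were TIARP-/- (KO) or TIARP+/+ (WT). There were 6 groups with 1 array each, namely KO and WT peritoneal macrophages, KO and WT peritoneal macrophages given TNFα for 24 hours, and KO and WT splenic neutrophils. Macrophages were collected from the peritoneum 3 days after thioglycollate, an irritant that draws cells into the cavity, so all 4 macrophage groups share that stimulus, and neutrophils were taken from spleen with magnetic beads against Ly6G. The labels number 3 mice for each array, and whether the mice were pooled is not stated in the sources used here. The time in culture of the macrophages without a TNF label is not given either, so TNF and time in culture cannot be told apart.

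Each value below is a scaled signal, which is the background-subtracted brightness of a probe set to 100 at the 75th percentile of its array, and each probe is compared with itself only. A difference is on the log2 scale, where 1 is 2-fold. With 1 array per group there is no spread between animals and no test, so a gene was said to rise or fall only at a difference of 1 or more in either direction, with a probe that the scanner software marked as well above background on the array where it was brighter. If the array where it was dimmer lacked that mark, the fold is a bound and is given as "at least". The scanner software's own error of a difference was 0.20 (SD, median over the genes), and spots repeated on 1 array had a median SD of 0.07, both of which cover technical error only. In these bulk samples, fewer cells of a type and less RNA per cell cannot be told apart.

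Between 56.6% and 62.2% of the probes were well above background on the 6 arrays, and 32 of the 35 genes were so on all 6. Steap4 had scaled signals of 20.3, 3.79 and 16.1 on the KO arrays of macrophages, macrophages with TNF and neutrophils, against 35.7, 11.4 and 21.1 on the matching WT arrays. Of the 3 pairs, only that with TNF passed 2-fold, with KO lower by at least 3-fold. The sources used here do not say which exons were removed, so this probe does not check the genotype labels. Macrophage markers were above background on all 6 arrays, 11 of 11. The neutrophil arrays also carried markers of other spleen cells. All 7 B cell genes were above background on both, with summed scaled signals of 52064 in KO and 55599 in WT. Of 7 erythroid genes, 7 were so in KO and 6 in WT, with sums of 166698 in KO and 68269 in WT. The 9 neutrophil genes summed to 273659 in KO and 222332 in WT. The 8 spike-in probes, which read added RNA of known amount, were on average brighter on the KO arrays after scaling, and scaling to them in place of the 75th percentile puts the median KO-minus-WT difference of all genes at -0.46, -0.75 and -0.44 in macrophages, macrophages with TNF and neutrophils, whereas the scaling used here gives 0.06, 0.03 and -0.02. Differences of the lipid genes are therefore best read relative to that median.

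The promoters of 4 enzymes are shown first, because the enzymes of cholesterol synthesis fell together in neutrophils against macrophages and lay below 0 in 31 of their 33 KO-minus-WT values. Those 33 values come from 3 pairs of arrays and are not independent of one another. The sequences are the 250 bases before the start in RefSeq on GRCm38.p6, 5′ to 3′, with matches to CCAAT (the box bound by NF-Y, a known partner of the SREBPs) and to CACCCCAC (the core of a sterol regulatory element) on either strand in capitals.
Hmgcs1, chr13:119690101-119690350, plus strand: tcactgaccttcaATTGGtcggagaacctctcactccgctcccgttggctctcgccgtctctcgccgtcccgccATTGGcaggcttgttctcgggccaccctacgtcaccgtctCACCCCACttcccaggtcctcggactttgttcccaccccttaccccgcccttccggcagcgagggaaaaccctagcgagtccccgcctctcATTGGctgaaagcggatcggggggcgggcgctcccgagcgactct
Idi1, chr13:8885356-8885605, plus strand: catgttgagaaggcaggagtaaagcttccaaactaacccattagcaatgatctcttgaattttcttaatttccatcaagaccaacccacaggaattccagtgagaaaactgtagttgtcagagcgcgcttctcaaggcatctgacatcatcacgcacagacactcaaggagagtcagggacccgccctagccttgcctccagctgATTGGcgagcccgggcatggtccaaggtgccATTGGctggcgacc
Lss, chr10:76531355-76531604, plus strand: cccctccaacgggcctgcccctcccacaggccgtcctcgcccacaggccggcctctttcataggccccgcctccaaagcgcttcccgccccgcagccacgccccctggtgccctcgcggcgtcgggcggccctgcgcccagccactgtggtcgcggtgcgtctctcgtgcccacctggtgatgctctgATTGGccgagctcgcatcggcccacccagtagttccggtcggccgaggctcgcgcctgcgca
Cyp51, chr5:4104698-4104947, minus strand: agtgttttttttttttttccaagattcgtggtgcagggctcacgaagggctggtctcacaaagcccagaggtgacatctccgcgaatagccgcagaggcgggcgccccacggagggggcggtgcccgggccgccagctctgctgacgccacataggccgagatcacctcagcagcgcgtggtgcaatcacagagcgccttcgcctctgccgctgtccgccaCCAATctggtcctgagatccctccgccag
Promoters were found for 8 of the 11 enzymes and for 25 of the 35 genes. Within the window of 250 bases before to 50 after the start, CCAAT or its reverse ATTGG was in a promoter of 8 of the 8 enzymes and of 11 of the other 17 genes, against 41.1% of 27025 genes. CACCCCAC or GTGGGGTG was in 1 of the 8 enzymes, Hmgcs1, against 3.3% of genes. The E-box CACGTG was in the promoters of Abca1, Dhcr7, Insig1 and Plin2, 4 of 25, against 8.09%. Neither the longer sterol regulatory element (0.0999% of genes) nor the LXR direct repeat spaced by 4 bases (0.0148%) was found in the 25, which says only that these letters are not in these windows. The motifs in capitals do not overlap in the sequences shown.

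In macrophages without TNF, none of the 35 genes reached 2-fold between KO and WT in either direction (0 of 35, where 4.01% of 21078 genes tested were higher and 1.73% lower). The 11 enzymes of cholesterol synthesis nevertheless all had differences below 0, from -0.70 to -0.13 with a median of -0.45, against a median of 0.06 over all genes tested. With TNF, 9 of the 11 were below 0 and the median was -0.46 (all genes, 0.03), and in neutrophils all 11 were below 0 with a median of -0.63 (all genes, -0.02). In neutrophils 3 of them fell past 2-fold, Sqle, Cyp51 and Fdps, where 5.0% of 20554 genes were lower. Over all genes tested, 8413 of 21078 lay below 0 in macrophages without TNF, 9474 of 20398 with TNF and 10769 of 20554 in neutrophils.

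Hmgcs1, which makes HMG-CoA at the head of the route, had scaled signals of 1745 in KO and 2241 in WT macrophages, 1260.1 in KO and 1755 in WT macrophages with TNF, and 288 in KO and 501 in WT neutrophils. Each KO array was the lower of its pair, with differences of -0.36, -0.48 and -0.80. Mvk and Mvd, the kinase and the decarboxylase of the mevalonate steps, were the 2 exceptions among the enzymes, since with TNF they were 0.07 and 0.27 on the KO side, after -0.13 and -0.28 without TNF and beside -0.46 and -0.33 in neutrophils. The dimmer probe of Mvk, above background on all 6 arrays, was at -0.15 with TNF.

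Idi1, the isomerase of isopentenyl diphosphate, had scaled signals of 779 in KO and 1064 in WT macrophages, 702 in KO and 966 in WT macrophages with TNF, and 184 in KO and 278 in WT neutrophils. Fdps, which makes farnesyl diphosphate, had 1563 in KO and 2251 in WT macrophages, 1856 in KO and 2536 in WT macrophages with TNF, and 277 in KO and 576 in WT neutrophils. Both enzymes were lower on the KO array of every pair, and Fdps fell 2.08-fold in neutrophils, a difference of -1.05. Its differences in macrophages were -0.53 without and -0.45 with TNF.

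Sqle, squalene epoxidase and a rate-limiting step of the sterol branch, had scaled signals of 892 in KO and 1347 in WT macrophages, 813 in KO and 1290.0 in WT macrophages with TNF, and 98.6 in KO and 231 in WT neutrophils. It had differences of -0.59 and -0.67 in macrophages and fell 2.34-fold in neutrophils (-1.23), the lowest value of the 11 enzymes there. Fdft1, squalene synthase, was at -0.52, -0.49 and -0.66 in macrophages, macrophages with TNF and neutrophils. Its dimmer probe, above background on 4 arrays only, went the other way in macrophages (0.17 and 0.33). In neutrophils, where that probe was dimmest, it was at -1.23, which is not read as a fall.

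Lss, which closes the ring to lanosterol, had scaled signals of 66.7 in KO and 102 in WT macrophages, 74 in KO and 132 in WT macrophages with TNF, and 20.2 in KO and 30.7 in WT neutrophils. Its difference with TNF, -0.84, was the lowest of the 11 enzymes in that comparison. Cyp51, lanosterol demethylase, had 75.9 in KO and 123 in WT macrophages, 76.8 in KO and 123 in WT macrophages with TNF, and 18.7 in KO and 39.5 in WT neutrophils. It had -0.70 and -0.67 in macrophages and fell 2.11-fold in neutrophils (-1.08), but under normexp background correction the neutrophil values of Cyp51 and Fdps were -0.59 and -0.995, both short of 2-fold. Of the later steps, Nsdhl was at -0.20, -0.27 and -0.32, with 0.13, -0.32 and -0.32 at its dimmer probe, and Dhcr7, which makes cholesterol from its last precursor, was at -0.28, -0.24 and -0.63.

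The 3 KO-minus-WT comparisons share no array, although the mice behind the macrophage arrays with and without TNF may be the same by their numbers. Of the 11 enzymes, 9 (81.8%) were lower on the KO array in all 3, against 3345 of the 18630 genes tested in all 3, and none was higher in all 3, against 25.1%. Since the genes were chosen with earlier results of these data known, these counts describe them and are not a test. Of all 35 lipid genes, 16 (45.7%) were lower in all 3 and 3 (8.57%), Nr1h2, Fabp4 and Fabp5, were higher in all 3. The counts take the sign alone, so values near 0 enter, such as -0.0032 for Pparg and 0.12 for Nr1h2 in macrophages without TNF. Fasn, Msr1 and Gpnmb, among the 16, each lacked the well-above-background mark on a KO array. The enzyme count was 9 as well under quantile normalization, under centring on detected probes and under normexp background correction, 10 when a gene's probes were summarised by their median, and 11 with spike-in scaling, where 76.0% of all genes are lower in all 3. The enzyme medians under spike-in scaling were -0.97, -1.24 and -1.04 in macrophages, macrophages with TNF and neutrophils, each below the median of all genes given above.

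The list of 14 further genes of sterol synthesis had medians of -0.31 and -0.30 in macrophages without and with TNF, with no gene past 2-fold of 13 tested in either. In neutrophils its median was -0.42, and 1 of 14 rose and 1 fell, where 4.85% of all genes were higher and 5.0% lower.

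**Figure D1:**
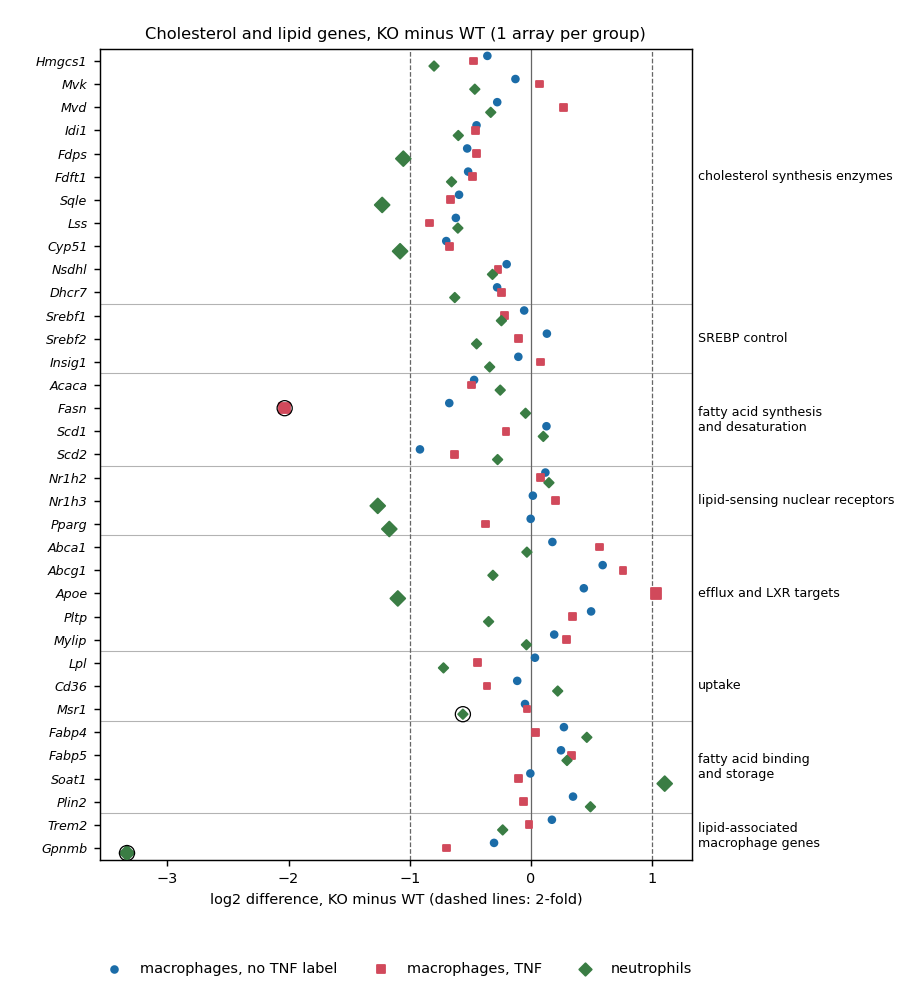
The plot gives the log2 difference, KO minus WT, of each of the 35 lipid genes in macrophages without TNF (circles), macrophages with TNF (squares) and neutrophils (diamonds), 1 array per group, with large markers for genes past 2-fold and rings where the lower signal lacked the well-above-background mark (measured difference shown). The 11 enzymes at the top lie left of 0 in 31 of 33 points, and only in neutrophils do 3 of them pass the dashed line at -1.

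Cell-type markers moved with genotype on the same arrays. Over all genes tested, 4.01% were higher and 1.73% lower in KO macrophages without TNF, and 6.99% and 2.92% with TNF. In KO neutrophils the shares were 4.85% and 5.0%. In macrophages, 4 of 9 neutrophil markers were higher in KO without TNF and 4 of 9 with TNF, with sums of 45203 in KO and 17521 in WT without TNF and 49129 in KO and 22988 in WT with TNF. Markers of mesothelial cells and fibroblasts were lower in KO for 4 of 8 without and 3 of 8 with TNF, with sums of 15243 in KO and 27206 in WT without TNF and 12206 in KO and 25561 in WT with TNF. B cell markers were higher in KO for 4 of 6 tested without and with TNF, with sums of 1983 in KO and 678 in WT without TNF. T cell markers were higher in KO for 3 of 6 tested, both without and with TNF. Erythroid markers were higher in KO for 2 of 4 tested without TNF and lower for 1 of 4 with TNF. Macrophage markers had medians of 0.40 without and 0.66 with TNF. Markers of resident peritoneal macrophages were higher in KO for 2 of 7 without TNF (median 0.34) and lower for 2 of 7 with TNF (median -0.88). In neutrophils, 7 of 11 macrophage markers were lower in KO (median -1.19, sums of 37346 in KO and 59328 in WT), 4 of 5 plasma cell markers were lower, and 6 of 7 erythroid markers were higher and 1 lower. Of 4 eosinophil markers tested there, 3 were lower and 1 higher, and 3 of 9 neutrophil markers were higher. The part of these shifts in the lipid gene values was not tested.

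The genes of sterol-dependent control did not pass 2-fold between genotypes in any condition. Srebf1 and Srebf2 encode the SREBPs, and Insig1 encodes the protein that holds them in the endoplasmic reticulum when sterol is high and is itself their target. Srebf2 was at 0.13, -0.10 and -0.45 in macrophages, macrophages with TNF and neutrophils, and its other probe at -0.30, -0.35 and -0.39. Insig1 was at -0.10, 0.08 and -0.34, and Srebf1 at -0.06, -0.22 and -0.24. The 4 further genes that process SREBPs (Scap, Insig2, Mbtps1 and Mbtps2) had no call in the 3 comparisons, with medians of 0.05, 0.16 and -0.20.

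Among the fatty acid genes, Acaca, acetyl-CoA carboxylase, was at -0.47 in macrophages without TNF and -0.49 in those with it, and Scd2, a stearoyl-CoA desaturase, at -0.92 and -0.63. A dimmer probe of Acaca above background on all 6 arrays was at -0.52, -0.62 and -0.27 in macrophages, macrophages with TNF and neutrophils. Another such probe was at -0.50, 0.20 and 0.15, so it went the other way with TNF and in neutrophils. Scd2 had scaled signals of 511 in KO and 964 in WT macrophages, 1101 in KO and 1704 in WT macrophages with TNF, and 720.5 in KO and 872 in WT neutrophils, and the KO array was the lower of each pair. Fasn, fatty acid synthase, was dim in macrophages, with 1.82 in KO macrophages with TNF (not well above background) against 7.45 in WT. It fell at least 2.14-fold there, where 2.92% of 20398 genes were lower, but under normexp background correction its difference was -0.13. Of 8 further listed genes of fatty acid synthesis, 3 fell in KO macrophages with TNF. They were Fads2, a desaturase of polyunsaturated fatty acids (-1.28), Me1, which supplies NADPH (-1.27), and Acss2, acetyl-CoA synthetase (-1.16, named after its values were seen). In neutrophils Fads1, another such desaturase, was the 1 of 7 tested that fell (-1.91), where 5.0% of all genes were lower. None of the 8 was called without TNF (median -0.17).

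The efflux genes lay on the other side in macrophages. Abca1 and Abcg1, the transporters that pass cholesterol to lipoproteins, Apoe, which carries it, Pltp, the phospholipid transfer protein, and Mylip, the ubiquitin ligase that degrades lipoprotein receptors, are all LXR targets. All 5 were above 0 in KO macrophages, with a median of 0.44 without TNF and 0.56 with TNF, but the medians were -0.09 and -0.22 under spike-in scaling, where those of all genes are -0.46 and -0.75. In neutrophils all 5 were below 0, with a median of -0.31. The 11 macrophage markers had medians of the same signs, at 0.40, 0.66 and -1.19 in macrophages, macrophages with TNF and neutrophils. Their part in the efflux values was not tested.

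Apoe passed 2-fold in opposite directions, and the sequence read by its probe on mm9 is shown because 10 spots on each array carry it.
Apoe probe, chr7:20281732-20281791, minus strand: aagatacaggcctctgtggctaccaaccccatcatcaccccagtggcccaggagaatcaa
Its scaled signal was 47240.4 in KO and 23102 in WT macrophages with TNF, a 2.04-fold rise (6.99% of genes were higher), and 79261 in KO and 58613 in WT macrophages without TNF, a difference of 0.44. In neutrophils it was 6808 in KO and 14585 in WT, a 2.14-fold fall, which was -0.81 on the log2 scale under quantile normalization. The rise with TNF lay close to 2-fold, at 1.03, and was 0.87 under quantile normalization, 0.99 under normexp and 0.25 under spike-in scaling.

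Abcg1 had scaled signals of 2349 in KO and 1559.5 in WT macrophages, 1203 in KO and 711 in WT macrophages with TNF, and 2577 in KO and 3205 in WT neutrophils. The KO array was higher in both macrophage pairs (0.59 and 0.76) and lower in neutrophils (-0.31), short of 2-fold each time. Abca1 was at 0.18, 0.56 and -0.03, Pltp at 0.50, 0.34 and -0.35, and Mylip at 0.19, 0.29 and -0.04 in the same order of conditions. In the list of 14 further genes of sterol transport and oxysterols, none was called without TNF. With TNF, Apoc2, an apolipoprotein that activates lipoprotein lipase, was the 1 that rose (1.06, named after its values were seen), where 6.99% of all genes were higher. In neutrophils 4 of the 14 fell, where 5.0% of all genes were lower, the lowest being Apoc1, another apolipoprotein and LXR target (-2.27). Cd68 (named after its values were seen) was among the 4 and is also among the 11 macrophage markers, of which 7 were lower there. The part of that marker shift in the 4 falls was not tested.

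Of the receptors, Nr1h3 (LXRα) and Pparg, the fatty acid sensor PPARγ, fell in KO neutrophils and did not differ by 2-fold in macrophages. Nr1h3 had scaled signals of 823 in KO and 1978 in WT neutrophils, a 2.4-fold fall, and its second probe gave -1.31. In macrophages the KO and WT arrays had 1174 and 1162 without TNF and 1179 and 1027 with TNF, so that each pair differed by no more than the 0.20 of the software's error. Pparg, read by 10 spots, had 366 in KO and 824 in WT neutrophils, a 2.25-fold fall, beside differences of -0.0032 in macrophages without TNF and -0.38 in those with TNF. Nr1h2 (LXRβ), the broadly expressed form, was at 0.12, 0.08 and 0.15.

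Uptake genes were not called between genotypes by their brightest probes. Lpl, the lipase that frees fatty acids from lipoproteins, was at 0.03, -0.44 and -0.72 in macrophages, macrophages with TNF and neutrophils. Its dimmer probe, above background on all 6 arrays, was at -0.11, -0.52 and -1.74, so the 2 probes differ on whether Lpl passed 2-fold in neutrophils. Cd36, a scavenger receptor and fatty acid translocase, was at -0.11, -0.36 and 0.22. Msr1, scavenger receptor A, was at -0.05 and -0.03 in macrophages, and in neutrophils its probe lacked the well-above-background mark in KO (3.33, against 4.92 in WT).

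Among the storage genes, Soat1, which esterifies cholesterol for lipid droplets, rose 2.15-fold in KO neutrophils, with a scaled signal of 82.5 in KO and 38.4 in WT, and was the 1 lipid gene that rose there (4.85% of genes were higher). Its difference was 0.77 under normexp and 0.69 under spike-in scaling. The fatty acid binding proteins Fabp4 (0.27, 0.04 and 0.46) and Fabp5 (0.25, 0.34 and 0.30) were slightly above 0 in every pair, and Plin2, which coats lipid droplets, was at 0.35, -0.06 and 0.49.

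In the list of 15 further lipid droplet and PPAR genes, Dgat2, which makes triglyceride, and Plin5, a lipid droplet coat protein, rose in KO in each condition. Dgat2 was at 2.52, 1.95 and 1.41 and Plin5 at 2.09, 1.77 and 1.72 in macrophages, macrophages with TNF and neutrophils. In neutrophils Plin4 (1.53) and Dgat1 (1.42, named after its values were seen) rose too, 4 of 14 genes tested, where 4.85% of all genes were higher. Both Dgat2 and Plin5 were also brighter in neutrophils than in macrophages, by 3.09 and 2.92 in KO and by 4.21 and 3.29 in WT. The part of the neutrophil markers, brighter on the KO macrophage arrays, in these values was not tested.

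Gpnmb and Trem2, a glycoprotein and a lipid receptor of lipid-laden macrophages, did not pass 2-fold in macrophages. Gpnmb was at -0.31 without and -0.70 with TNF, and Trem2 at 0.17 and -0.02. In neutrophils Gpnmb was not well above background in KO (0.985, against 9.93 in WT) and fell at least 2.12-fold, with a difference of -0.26 under normexp. In all, 7 of the 35 genes fell in KO neutrophils (5.0% of 20554 genes were lower), namely Sqle, Cyp51, Fdps, Apoe, Nr1h3, Pparg and Gpnmb. All 7 fell on the same array on which 7 of 11 macrophage markers were lower, and the part of that shift was not tested.

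**Figure D2:**
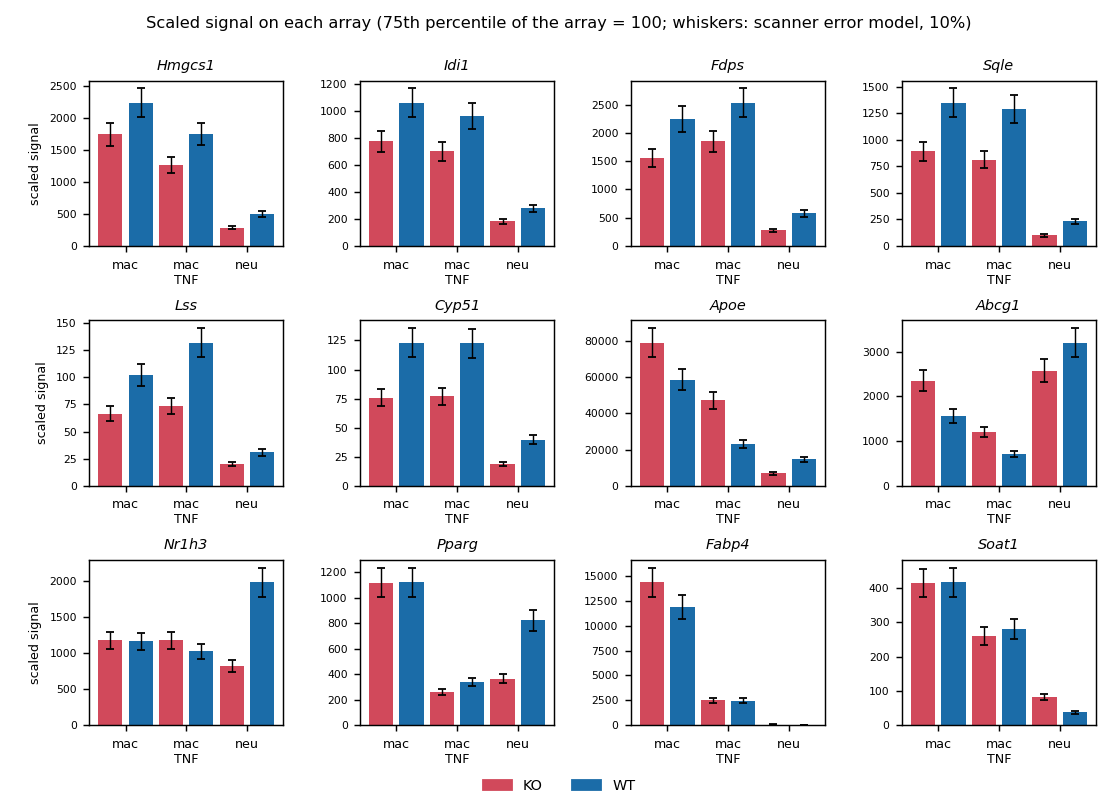
Bars give the scaled signal (75th percentile of the array = 100, linear axis from 0) of 12 lipid genes on each array, KO left of WT for macrophages, macrophages with TNF and neutrophils, with whiskers for the scanner software's 10% error. The 6 enzymes are lower in KO in each pair, Apoe and Abcg1 are higher in KO in the 2 macrophage pairs and lower in the neutrophil pair, and Fabp4 and Pparg are lower in both genotypes with TNF.

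With TNF, Cd36, Fabp4, Mylip, Plin2 and Pparg fell in both genotypes. The 2 comparisons, with TNF against without, share no array. In KO, 3 of the 35 genes rose and 5 fell (4.56% and 3.99% of 20538 genes), and in WT, 1 rose and 7 fell (4.64% and 6.09% of 21102 genes). The 5 that fell in KO were all among the 7 that fell in WT, and Mvd rose in both.

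Fabp4 had scaled signals of 2526 with and 14342 without TNF in KO, and of 2459 with and 11885 without TNF in WT. It fell 5.68-fold in KO and 4.83-fold in WT, the largest fall of the 35 genes in both. Pparg, which drives Fabp4 and Cd36, had 262 with and 1118 without TNF in KO and 341 with and 1120.4 without in WT, a fall of 4.27-fold in KO and 3.29-fold in WT. Cd36 fell 2.72-fold in KO and 2.29-fold in WT, and Plin2 2.68-fold and 2.02-fold.

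The efflux genes split under TNF. Mylip fell in KO (-1.42) and WT (-1.52). Abcg1 had scaled signals of 1203 with and 2349 without TNF in KO and 711 with and 1559.5 without in WT, which was past 2-fold in WT (-1.13) and just short of it in KO (-0.96). Apoe fell 2.54-fold in WT and had a difference of -0.75 in KO, whereas Abca1 rose 2.44-fold in KO and had 0.90 in WT. Pltp was at -0.85 in KO and -0.69 in WT, and the receptors Nr1h3 (0.01 and -0.18) and Nr1h2 (0.02 and 0.06) stayed within 0.20 of 0.

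Of the 11 synthesis enzymes, Mvd alone passed 2-fold with TNF. It had scaled signals of 649 with and 143 without TNF in KO and 540.0 with and 174 without in WT, a rise of 4.53-fold in KO and 3.11-fold in WT. The other 10 lay between -0.47 and 0.25 in KO and between -0.35 and 0.37 in WT. Scd2 rose 2.16-fold in KO and had a difference of 0.82 in WT. Msr1 was at 0.82 in KO and 0.81 in WT, and Soat1 at -0.67 and -0.57.

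The difference of the TNF differences, KO minus WT, reached 1 for 0 of the 34 genes whose probe was above background on all 4 macrophage arrays (1.37% of 18776 genes were higher and 0.628% lower). It was largest for Apoe (0.60) and Mvd (0.54) and lowest for Lpl (-0.47), Plin2 (-0.41) and Gpnmb (-0.39). Genes past 2-fold in 1 genotype only, such as Abca1, Abcg1 and Apoe, are therefore not shown to differ in their TNF difference. Of 53 further pathway genes tested, 0 were higher and 2 lower: Acss2 (-1.08) and Mgll, monoglyceride lipase (-1.04).

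Of the 55 further pathway genes, 3 rose and 6 fell with TNF in KO (4.56% and 3.99% of all genes) and 5 rose and 4 fell in WT (4.64% and 6.09%), of 54 tested in each. Olr1, a receptor for oxidised lipoproteins, rose by 4.31 in KO and 4.14 in WT, and Ch25h, which makes 25-hydroxycholesterol, by 2.22 and 2.59. Cyp27a1, which makes 27-hydroxycholesterol, had differences of -2.48 in KO and -2.32 in WT, and Pdk4, a PPAR target that restrains glucose oxidation, of -2.43 (a bound) and -2.10. Of 11 macrophage markers, 6 were lower and 1 was higher with TNF in each genotype, with medians of -1.67 in KO and -2.04 in WT. Their sums were 105336 with and 111834 without TNF in KO and 91563 with and 93582 without in WT. Of 7 markers of resident peritoneal macrophages, 4 were lower in each genotype, and 1 was higher in KO and 2 in WT. Of 9 neutrophil markers, 2 were higher in KO and 3 in WT, and 0 were lower. What these markers and the time in culture contribute to the falls was not tested.

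**Figure D3:**
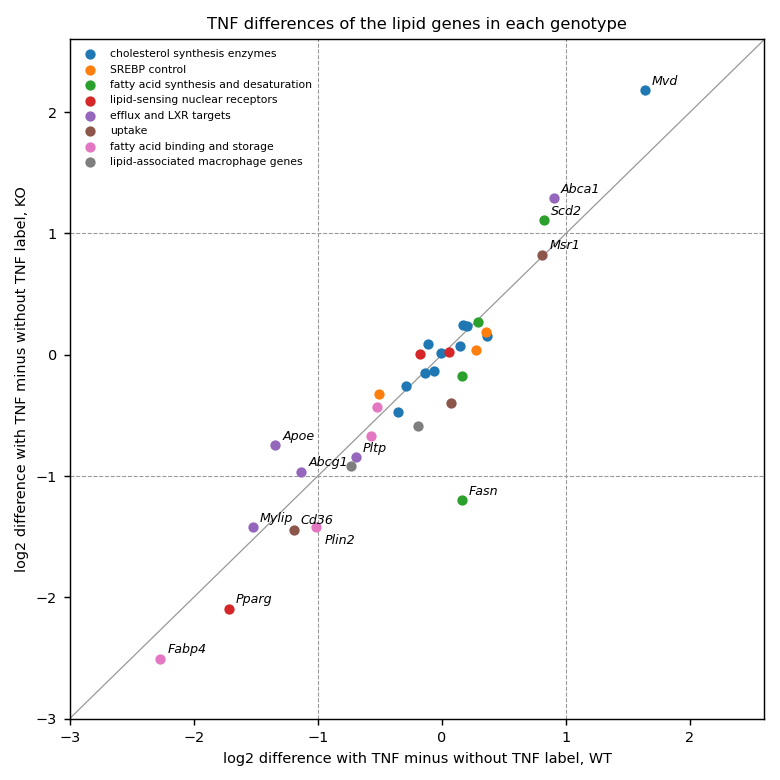
Each point is 1 of the 35 lipid genes, with its log2 difference with TNF minus without TNF in KO macrophages (vertical) against that in WT macrophages (horizontal), coloured by role, with dashed lines at 2-fold and a line of equal difference. Fabp4, Pparg, Cd36, Plin2 and Mylip lie past the line of a 2-fold fall in both genotypes, Mvd lies above that of a 2-fold rise in both, and the enzymes apart from Mvd lie near 0. Fasn is drawn at its measured value, although its KO signal with TNF was not well above background.

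Neutrophils from spleen and macrophages from the peritoneum differ in cell type, tissue and stimulus together, which cannot be told apart. Of the 35 genes, 3 rose and 26 fell in KO neutrophils against KO macrophages (24.2% and 21.6% of 21411 genes), and 4 rose and 23 fell in WT neutrophils against WT macrophages (25.3% and 20.9% of 21562 genes). The medians of the 35 were -1.78 in KO and -1.64 in WT, against 0.00 and 0.02 over all genes tested. Scaling to the spike-ins lowers the median of all genes to -1.46 and -1.53, and the falls here are relative to the 75th percentile.

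All 11 enzymes of cholesterol synthesis fell in KO neutrophils and 10 of 11 in WT neutrophils, with medians of -1.91 and -1.74. Of the enzymes Sqle had the largest fall, with scaled signals of 98.6 in KO neutrophils and 892 in KO macrophages, and of 231 in WT neutrophils and 1347 in WT macrophages. That was a 9.05-fold fall in KO and a 5.83-fold fall in WT. Nsdhl, the exception in WT, was at -0.98. The probes of Srebf2 disagreed, since the brighter one was at -3.92 in KO and -3.34 in WT while the other was at -0.04 and 0.04, so no direction is given for that gene, although the brighter probe counts among the falls above.

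The genes of lipid uptake, binding and the lipid-laden macrophage showed the largest falls. Gpnmb had 9.93 in WT neutrophils against 50574 in WT macrophages, a 5092-fold fall, and Trem2 had 14.7 in KO and 17.3 in WT neutrophils against 30335 in KO and 26928 in WT macrophages. Fabp4 fell 161-fold in KO and 183-fold in WT, Msr1 at least 250.1-fold in KO and 246-fold in WT, and Lpl 91.6-fold in KO and 54.3-fold in WT. Cd36, Plin2 and Fabp5 had differences between -5.78 and -5.03 across both genotypes.

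Scd1, the desaturase that makes oleate, went the other way. It had scaled signals of 1514 in KO and 1412 in WT neutrophils against 58.3 in KO and 53.4 in WT macrophages, a rise of 26-fold in KO and 26.5-fold in WT, while Scd2 was at 0.50 in KO and -0.14 in WT. Fasn rose 3.69-fold in KO and 2.39-fold in WT from a dim level, and Mylip 2.29-fold and 2.68-fold. Abcg1 rose in WT (1.04) and was at 0.13 in KO. Under spike-in scaling, Mylip turned to -0.28 in KO and -0.16 in WT, and Fasn and Abcg1 turned to -0.32 and -0.54 in WT, all above the medians of all genes given above. The erythroid and B cell markers given above stand beside these rises on the neutrophil arrays, and their part was not tested.

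**Figure D4:**
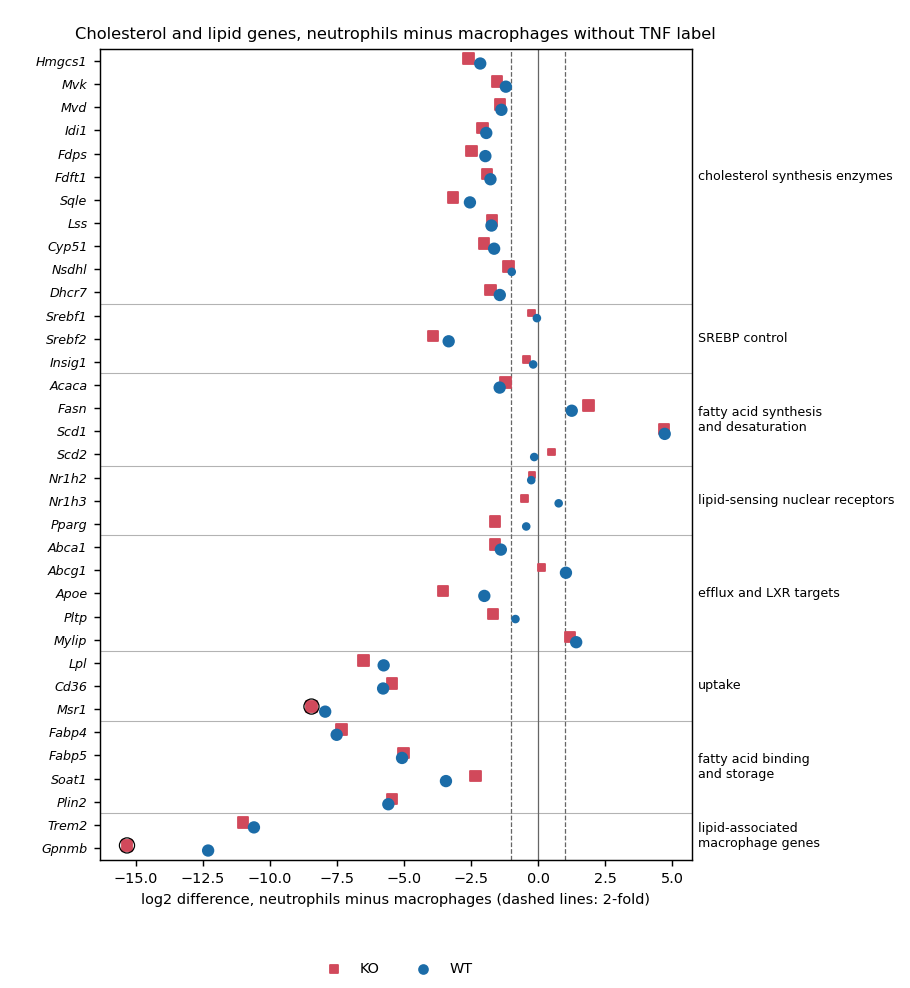
The plot gives the log2 difference, neutrophils minus macrophages without TNF, of each of the 35 lipid genes in KO (squares) and WT (circles), 1 array per group, with large markers for genes past 2-fold, dashed lines at 2-fold and rings where the lower signal lacked the well-above-background mark (measured difference shown). The enzymes lie between -3.18 and -0.98, the uptake and storage genes reach from -2.33 to -8.46, Trem2 and Gpnmb lie below -10, and Scd1 stands at 4.70 in KO and 4.73 in WT.

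The further pathway genes gave 7 higher and 28 lower of 55 in KO (24.2% and 21.6% of all genes) and 5 higher and 27 lower of 54 in WT (25.3% and 20.9%). Me1 (-4.99 in KO, -6.47 as a bound in WT) and Lipa, the lysosomal acid lipase (-4.79 in KO and -3.77 in WT), were among the lowest, as was Olr1 in WT (-4.50, a bound). Dgat2 and Plin5, given above, were the highest in KO, and Dgat2 and Apoc1 (3.63) in WT.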

How the data were processed

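The 6 single-colour Agilent arrays hold 1 group each. Per the file headers, the authors quantified them with Feature Extraction 10.7.3.1, and the deposited values are spot intensity on a linear scale, background-subtracted and detrended within each array, with no normalization between arrays and probe coordinates on mm9. From the deposited intensity, log2 was taken of each spot, control and outlier spots were left out, and repeated spots were averaged on the log2 scale. The 75th percentile of each array, taken over all 55681 gene probes, was subtracted. The 16194 lincRNA probes named by coordinates were left out after that, which left 39487 probes of 30187 genes. No spot was saturated (0). The software's own mark gave well above background. Bounds used the lowest such signal of an array, or the probe's own measured signal where that was higher, as for Steap4 with TNF. Precision is limited by the number of arrays. Genotype was not modelled across the conditions, and no p-value is given. The rule was run on simulated signals, with planted differences past the threshold, small technical noise and every probe above background. That run cannot test the bounds or differences between animals or cell mixtures. Every lipid gene was named, and of the other pathway genes the 2 largest each way past 2-fold in each comparison. The members and lists were chosen with earlier results of these data known. Alternatives were quantile normalization, centring on detected probes, spike-in scaling, normexp (offset 50) in limma 3.58.1 under R 4.3.3, 2 filters on dim probes, the median over a gene's probes and a 1.5-fold threshold. Python 3.11.15 and pandas 2.3.3 were used. Promoters are from RefSeq on GRCm38.p6.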

Additional observations from a re-analysis of the deposited data

Results flagged for a closer look

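Apoe is the 1 gene of the 35 that passed 2-fold in opposite directions between genotypes. KO minus WT was -1.10 in neutrophils and 1.03 in macrophages with TNF, which differ by -2.13 on the log2 scale. With 1 array per group, the difference was not tested. Under quantile normalization the 2 values were -0.81 and 0.87, both short of 2-fold. The value with TNF was 0.99 under normexp and 0.25 under spike-in scaling. Macrophage markers had medians of -1.19 in neutrophils and 0.66 in macrophages with TNF, and their part was not tested.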

How the results depend on the processing

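No paired analysis was possible because no groups share 2 replicate numbers, with 1 array each, and no replicate could be left out; a fit of genotype with condition as a block was not made. Counts of lipid genes past 2-fold are given as higher and lower, with the main values in the report. Spike-in scaling gave 7 lower in KO macrophages, 0 higher and 16 lower in KO against WT under TNF, 0 higher and 13 lower in KO neutrophils, 1 higher and 9 lower with TNF in KO, and 1 higher in KO and 1 in WT neutrophils against macrophages. It turned Mylip to -0.28 in KO and -0.16 in WT, and Fasn to -0.32 and Abcg1 to -0.54 in WT, in neutrophils against macrophages; the construction moves all genes, whose median went as low as -1.53. Normexp gave 0 higher and 0 lower in KO against WT under TNF, 0 higher and 4 lower in KO neutrophils, and 2 higher in WT neutrophils against macrophages. Quantile normalization gave 0 higher in KO macrophages with TNF. Requiring signal above background on both arrays gave 0 lower there, since Fasn drops out, and no filter gave 1 lower (Fasn) for the difference of TNF differences. A 1.5-fold threshold gave 1 higher and 5 lower in KO macrophages, 2 higher and 6 lower in KO against WT under TNF, 13 lower in KO neutrophils, 4 higher with TNF in WT, 11 lower with TNF in KO, and 1 higher for the difference of TNF differences. The cause of the changes under normexp and quantile normalization was not tested. Dim probes (Fasn in macrophages, Gpnmb and Msr1 in neutrophils) are limited by their signal over background.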
